A study of Mus musculus with 11 samples.

Results

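The 37 genes described here are mouse genes that interferons induce. They were taken by name, and each symbol matched 1 Ensembl identifier among the 21957 genes counted. The set holds 11 genes called GTPases here, namely 6 guanylate-binding proteins (Gbp2 to Gbp7) and 5 immunity-related GTPases (Iigp1, Igtp, Irgm1, Irgm2 and Tgtp1). The 26 other genes include RNA sensors and the Ifit, Oas and Mx antiviral families. Mx1, although it encodes a dynamin-like GTPase, is counted among these 26. The cells were primed OT1 cells, CD8 T cells from a transgenic mouse line whose T cell receptor recognises a peptide of ovalbumin. One group was left unstimulated and the other was exposed to beads coated with antibodies to CD3 and CD28 for 2 h. Both then received cycloheximide, a blocker of translation elongation, for 10 min, so the controls carry that treatment too. Coding-sequence counts were available for mRNA from 3 unstimulated and 3 stimulated libraries, and for ribosome footprints, the stretches of mRNA that ribosomes protect from nuclease, from 3 unstimulated libraries and stimulated replicates 2 and 3. The strain background, age and sex of the mice, the way the cells were primed, and whether replicates came from separate cultures or animals are not given in the sources used here. The p-values therefore measure the spread between these libraries, which may be technical.

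Interferons act through cell-surface receptors and JAK kinases on STAT proteins. Signalling by type I interferons, which uses STAT2 and IRF9, acts on a DNA element called the interferon-stimulated response element (ISRE), whereas signalling by interferon gamma acts on the gamma-activated site (GAS). Activated CD8 T cells are themselves a source of interferon gamma, which they secrete. The guanylate-binding proteins and immunity-related GTPases are known mainly as targets of interferon gamma that attack pathogen-containing vacuoles, and the Ifit, Oas and Mx genes as targets of type I interferon.

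Total counts were 21658263 to 39346699 in the RNA libraries and 11136 to 23641 in the footprint libraries. Levels are given as CPM, a count scaled by library size with edgeR's TMM factors. In RNA, 3 libraries stood apart from the others: unstimulated replicate 2 and stimulated replicates 1 and 2 had 0.188 to 0.275% of their counts on 1538 olfactory, vomeronasal and defensin genes, which T cells are not known to use, against 0.0300 to 0.0685% in the other 3. After TMM scaling, stimulated replicate 3 was the highest stimulated library for 98.2% of the 8705 genes of at least 10 CPM, and for 34 of the 37 members. The 8 CD8 T cell markers (such as Cd3e and Cd8a) summed to 5886 to 6902 CPM in unstimulated and 4392 to 6572 CPM in stimulated libraries, and none passed the test. Their log2 changes (stimulated minus unstimulated) were all below 0, from -0.66 to -0.01 with a median of -0.36. In a fit restricted to genes of at least 10 CPM, 5 of the 8 were called lower, as were 36.2% of all genes in it. The 30 markers of CD4 T cells, B cells, macrophages, dendritic cells, NK cells and erythroid cells together summed to 44.5 to 67.0 CPM before and 69.4 to 80.7 CPM after stimulation. Of these, 26 could be tested and 2 passed: Cd40lg, also an activation gene, was higher and Alas2, an erythroid gene, lower. None of the 30 was at 0 in all 6 RNA libraries, the hemoglobin gene Hba-a1 was at 0 in some, and together they had 8 footprints. Their part in the results was not tested, and in such bulk samples fewer cells of a type and less RNA per cell cannot be told apart. All 10 activation genes examined (among them Il2, Tnf, Cd69 and Nr4a1) were called higher, where 3.58% of all genes tested were. Cd69 lost its call with another scaling (RLE) and without a filter. It also lost it without stimulated replicate 1 or 2 or unstimulated replicate 1 or 3, each left out alone.

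In RNA, 5 of the 7 members called higher after stimulation were GTPase genes, and the other members included calls in both directions. All 37 passed the low-count filter. By edgeR's quasi-likelihood test with Benjamini-Hochberg adjustment over 18886 genes, 7 members were called higher (3.58% of all genes tested were) and 2 lower (4.67% of all genes tested were), and 28 did not pass. The 7 were Iigp1, Gbp5, Irgm1, Tgtp1, Igtp, Ifit1 and Ifih1, and the 2 lower were Ifit2 and Mx1. Among the 11 GTPases, 5 were called higher and 0 lower, with a median log2 change (stimulated minus unstimulated) of 0.61. Among the other 26 members, 2 were called higher and 2 lower, with a median of 0.30. The median was 0.35 over all 37 and 0.39 over all genes tested, the latter raised by low genes: over the 8705 genes of at least 10 CPM it was -0.09. Another scaling moves that reference to as low as -0.41 (DESeq2), so a change is best read against it.

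The counts of calls depended on which genes and libraries were fitted. In a fit restricted to the genes of at least 10 CPM, in which 36.8% of all genes were called higher and 36.2% lower, 20 of the 27 members tested were called higher and 4 lower, and all 11 GTPases were higher. Without the 3 high-background libraries, where 10.8% of genes were called higher and 30% lower, 13 members were called higher, 8 of them GTPases, and 7 lower (the lone stimulated library is then assumed to vary as the unstimulated ones do). Leaving out unstimulated replicate 2 alone gave 12 members higher and 9 lower, against 35.6% and 32.1% of all genes. Without stimulated replicate 2, 4 were higher and 0 lower by edgeR, against 1.48% and 1.57% of all genes, and without unstimulated replicate 3, 4 and 1, against 1.55% and 1.77%. The counts were 6 and 1 without stimulated replicate 1 (1.87% and 2.3% of all genes) or unstimulated replicate 1 (2.25% and 2.45%), and 10 and 6 without stimulated replicate 3 (5.05% and 21.9%). Without any test, the 3 stimulated libraries lay wholly above the 3 unstimulated ones for 17 members (15.4% of genes tested) and wholly below for 4 (13.6%), and the groups overlapped for 16. Among the genes of at least 10 CPM, such separation was found for 16.4% above and 24.7% below.

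**Figure D1:**
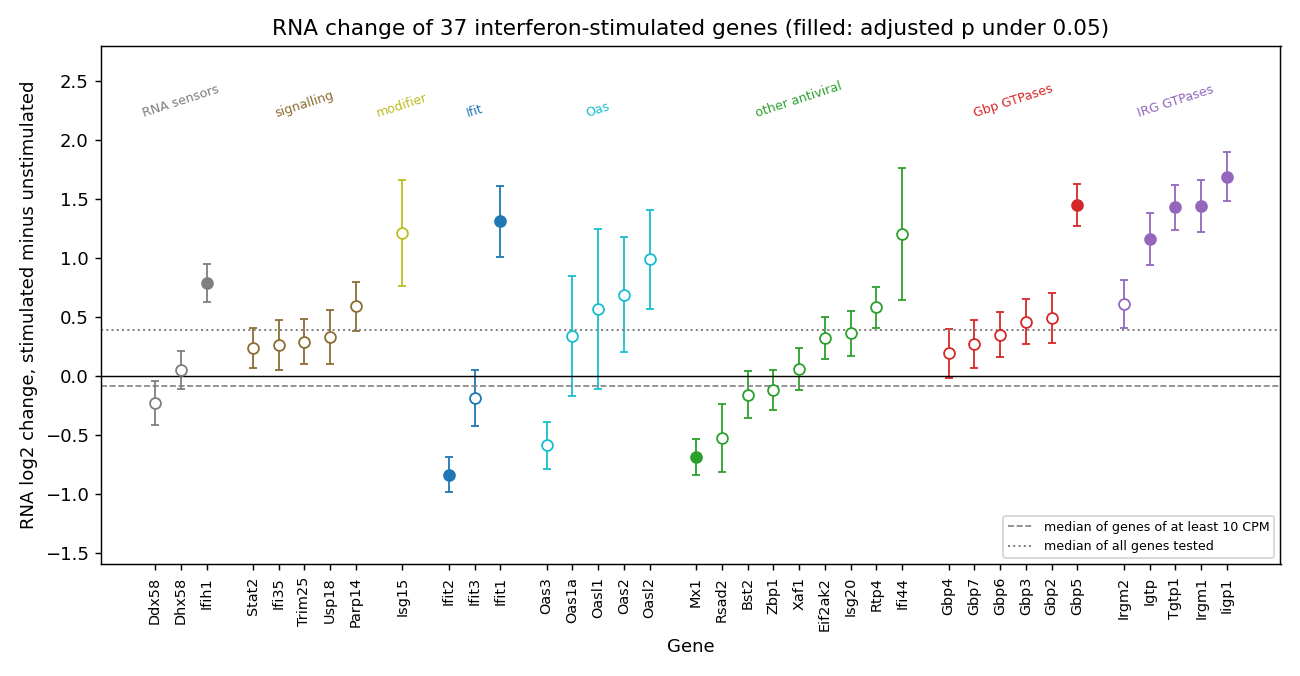
Log2 change in RNA (stimulated minus unstimulated, y axis) with its standard error for each of the 37 genes, grouped by role (colours, x axis); filled points passed an adjusted p of 0.05 in edgeR. The GTPases on the right lie between 0.19 and 1.69 in this fit, with 4 of 5 immunity-related GTPases and Gbp5 filled, and the other members span -0.84 to 1.31; the lines mark the medians of all genes tested (0.39) and of genes of at least 10 CPM (-0.09).

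Of the 5 immunity-related GTPase (IRG) genes, 4 were called higher. Igtp, Irgm2, Irgm1 and Tgtp1 lie on chromosome 11 of GRCm38, Igtp at 58199556 to 58207592, Irgm2 at 58214977 to 58222783, Irgm1 at 48865245 to 48871420 and Tgtp1 at 48985329 to 48992246, so that Igtp and Irgm2 are close neighbours. The bases before the annotated start of these 4 genes are shown with those of Gbp5, Ifit1 and Isg15, because they hold the letters through which interferon signalling is known to act. Each is 120 bases, 5′ to 3′ on the gene's strand, ending just before the start, from RefSeq's annotation of GRCm38.p6. Capitals mark matches to the ISRE letters GAAANNGAAA or the GAS letters TTCNNNGAA on either strand (N is any base; in Ifit1 the ISRE matches are on the other strand and read TTTC):
Igtp: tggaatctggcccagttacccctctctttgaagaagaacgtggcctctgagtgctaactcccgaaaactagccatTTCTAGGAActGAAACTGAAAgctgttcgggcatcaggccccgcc
Irgm2: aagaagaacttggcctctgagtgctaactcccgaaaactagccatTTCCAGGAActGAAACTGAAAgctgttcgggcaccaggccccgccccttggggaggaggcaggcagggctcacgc
Tgtp1: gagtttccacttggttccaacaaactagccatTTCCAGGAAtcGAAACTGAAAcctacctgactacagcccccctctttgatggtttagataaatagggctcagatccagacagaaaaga
Irgm1: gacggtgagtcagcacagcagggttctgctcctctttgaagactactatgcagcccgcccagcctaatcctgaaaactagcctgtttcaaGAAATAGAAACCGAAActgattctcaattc
Gbp5: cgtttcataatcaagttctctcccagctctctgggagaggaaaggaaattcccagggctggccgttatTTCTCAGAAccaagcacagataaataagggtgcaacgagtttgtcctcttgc
Ifit1: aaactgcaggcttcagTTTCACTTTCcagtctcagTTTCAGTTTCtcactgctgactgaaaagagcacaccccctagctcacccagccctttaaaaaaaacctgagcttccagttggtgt
Isg15: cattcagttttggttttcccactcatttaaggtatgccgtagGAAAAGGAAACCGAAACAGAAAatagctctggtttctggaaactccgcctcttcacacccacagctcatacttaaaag

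These stretches are chr11:58199436-58199555 and chr11:58214857-58214976 on the plus strand, chr11:48992247-48992366 and chr11:48871421-48871540 on the minus strand, chr3:142496814-142496933 and chr19:34640769-34640888 on the plus strand, and chr4:156200819-156200938 on the minus strand. In Igtp, Irgm2 and Tgtp1, a GAS match stands directly before an ISRE match with 2 bases between them. That joint arrangement, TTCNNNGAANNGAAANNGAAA on either strand, was searched after it had been seen in the sequences. It occurred in 5 of 32851 RefSeq promoter windows (0.0152%; each window runs from 250 bases before to 50 after a start). The 5 windows belong to Igtp, Irgm2, Tgtp1, Tgtp2 and Gm12185, all from the same gene family, so the shared letters are not independent of each other. RNA of Gm12185 was also called higher (log2 0.59 ± 0.14 SE, adjusted p = 0.0250, edgeR), and that of Tgtp2, a near-identical copy of Tgtp1, did not pass (0.60 ± 0.18, adjusted p = 0.0670). The Gm12185 call was lost in 8 of 17 alternatives, for example under DESeq2 (0.28, adjusted p = 0.427) and without stimulated replicate 1 (0.350), stimulated replicate 2 (0.391), unstimulated replicate 1 (0.196) or unstimulated replicate 3 (0.386).

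Of the 37 members, 27 had a promoter window. ISRE letters occurred in 19 of these, 8 of 8 GTPases and 11 of 19 others, against 3.99% of the 27025 genes with a window (3.44% of windows). GAS letters occurred in 11, 5 of 8 GTPases (Gbp5, Gbp7, Igtp, Irgm2 and Tgtp1) and 6 of 19 others, against 9.55% of genes (8.3% of windows). Matches can overlap, as in Isg15 with 3 overlapping ISRE matches and in Bst2, where a GAS and an ISRE match share bases. Among the members called higher in RNA, Ifih1 had its ISRE match after the start and Iigp1 had no window. The GTPases Gbp4 and Gbp6 had no window either. Of the members called lower, Ifit2 had a GAS match and no ISRE match, and Mx1 had no window. A match describes letters in a window and says nothing of binding in these cells.

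Iigp1 encodes an IRG protein that coats the vacuoles of intracellular parasites. Its RNA was at 136, 121 and 133 CPM in unstimulated replicates 1, 2 and 3 and at 352, 376 and 532 CPM in stimulated replicates 1, 2 and 3. The groups did not overlap, and stimulated replicate 3 stood highest. The log2 change was 1.69 ± 0.21 (SE), or 3.23-fold, with an adjusted p of 0.000837 (edgeR). With scaling over all RNA libraries, it was 1.99 between the low-background libraries and 1.59 between the high-background ones. No alternative fit, including that without the high-background libraries, gave more than 1.79. The high-background libraries were not scaled alone, so whether the gap between the classes depends on the scaling was not tested.

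Irgm1, a regulatory IRG protein that guards the cell's own membranes, was at 141, 133 and 140 CPM in the unstimulated and 291, 353 and 483 CPM in the stimulated libraries. The rise was 1.44 ± 0.22 on the log2 scale (adjusted p = 0.00249). With the same scaling it was 1.78 within the low-background and 1.27 within the high-background libraries, and no alternative fit gave more than 1.53. Tgtp1 (Irgb6), an effector IRG protein, was at 38.3, 37.2 and 37.0 CPM before and 82.8, 95.4 and 126 CPM after stimulation, a log2 change of 1.43 ± 0.19 (adjusted p = 0.00102). In both genes every stimulated library lay above every unstimulated one. Counts of Tgtp1 and its copy Tgtp2 may be split by the counting, which is not described, so the value of either gene is uncertain.

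Igtp (Irgm3), a further regulatory IRG protein, was at 258, 232 and 246 CPM before and 444, 499 and 702 CPM after stimulation. The groups did not overlap and the log2 change was 1.16 ± 0.22 (adjusted p = 0.00729), but the call was lost without stimulated replicate 2 (adjusted p = 0.0807) and without unstimulated replicate 3 (0.0762). Irgm2, which the same neighbourhood holds, was at 87.2, 84.3 and 88.2 CPM against 103, 125 and 169 CPM. Its libraries were also separated by group, yet with a log2 change of 0.61 ± 0.20 it missed the threshold (adjusted p = 0.0919), which it passed in 8 of 17 alternatives.

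The guanylate-binding proteins form cages on pathogen membranes and, in part, lead to inflammasome activation. Gbp5, known for promoting the NLRP3 inflammasome, was the only 1 of 6 called. It lies at chromosome 3, 142496934 to 142522344, and was at 58.6, 58.5 and 61.2 CPM before and 141, 150 and 195 CPM after stimulation. All 3 stimulated libraries exceeded all unstimulated ones, with a log2 change of 1.45 ± 0.18 (adjusted p = 0.000928, edgeR). With scaling over all RNA libraries it was 1.70 within the low-background and 1.31 within the high-background libraries. No alternative fit of Gbp5 gave more than 1.54. Together with Iigp1, Irgm1 and Tgtp1 it was called higher in all 17 alternative fits.

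Gbp2, also on chromosome 3, was at 311, 278 and 299 CPM in the unstimulated and 345, 384 and 520 CPM in the stimulated libraries. The groups were separated, but the change of 0.49 ± 0.21 did not pass (adjusted p = 0.202). Gbp4, on chromosome 5, was at 541, 477 and 520 CPM before and 494, 529 and 731 CPM after stimulation, with overlapping groups (log2 0.19 ± 0.21, adjusted p = 0.516). Gbp3, Gbp6 and Gbp7 had log2 changes of 0.46, 0.35 and 0.27, none past the threshold. The sign for Gbp4 turned under DESeq2 (-0.13) and RLE scaling (-0.04), and for Gbp7 under DESeq2 (-0.05), so no direction is given for either. The Gbp genes are near copies of each other in places, and how reads shared between them were counted is not stated.

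**Figure D2:**
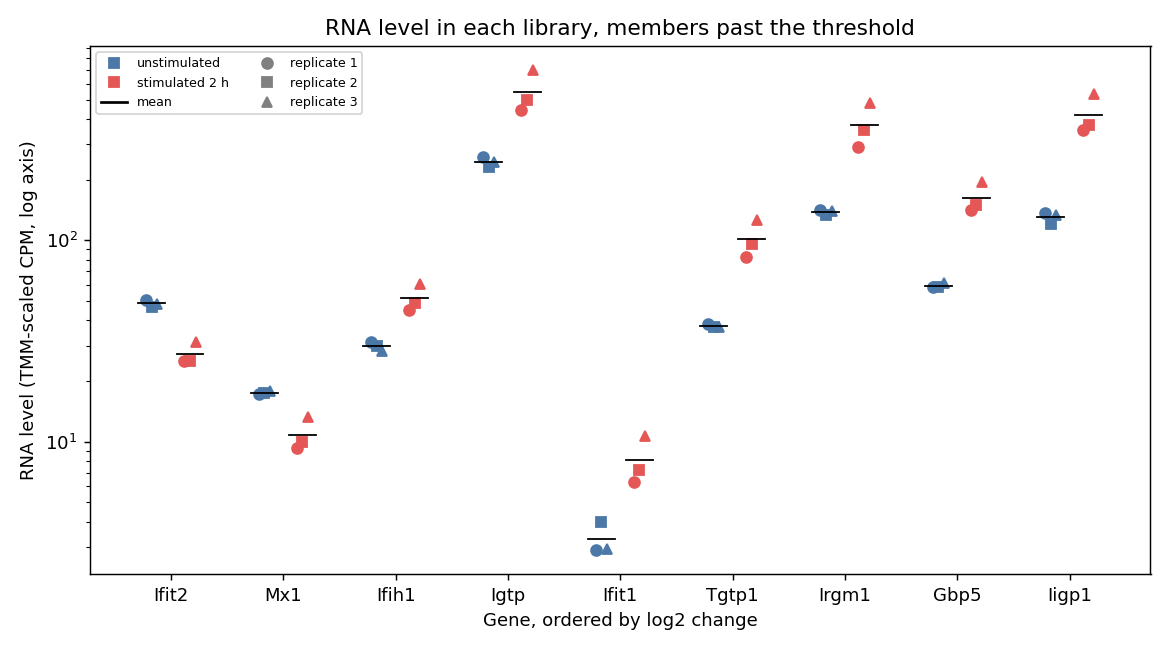
RNA level (TMM-scaled CPM, log axis) in each of the 3 unstimulated (blue) and 3 stimulated (red) libraries, marked by replicate, for the 9 members past the threshold, with group means as black bars. Ifit2 and Mx1 fall and the other 7 rise with no overlap between groups, and stimulated replicate 3 (red triangles) is the highest stimulated library for every gene shown.

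Of the 3 cytosolic RNA sensor genes, 1 passed. Ifih1, which encodes MDA5, a sensor of long double-stranded RNA, was at 31.3, 30.0 and 28.1 CPM before and 45.0, 48.6 and 61.0 CPM after stimulation. The groups did not overlap, and the log2 change was 0.79 ± 0.16 (adjusted p = 0.0117). This call was lost in 6 of 17 alternatives, for example under DESeq2 (0.48, adjusted p = 0.141) and without stimulated replicate 2 (0.68, adjusted p = 0.240), stimulated replicate 1 (0.69, 0.197) or unstimulated replicate 3 (0.69, 0.237). Ddx58, encoding RIG-I, the sensor of RNA with a triphosphate end, was at 97.9, 86.9 and 93.2 CPM against 66.6, 73.0 and 97.1 CPM. Its groups overlapped through stimulated replicate 3 and the change of -0.23 ± 0.19 did not pass (adjusted p = 0.399). Dhx58, encoding LGP2, a modulator of both sensors, had a change of 0.05 ± 0.16.

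None of the 5 signalling genes passed. Parp14, an ADP-ribosyltransferase, was at 202, 183 and 199 CPM before and 230, 281 and 368 CPM after stimulation, separated by group but with an adjusted p of 0.119 (log2 0.59 ± 0.21). It was called higher in 8 of 17 alternatives. Ifi35, an interferon-induced leucine zipper protein, was at 46.1, 40.3 and 49.6 CPM against 42.3, 48.7 and 72.5 CPM, with overlapping groups (0.26 ± 0.21, adjusted p = 0.392). Stat2, the STAT of the type I pathway, Trim25, a ubiquitin ligase for RIG-I, and Usp18, which removes ISG15 from proteins and dampens type I receptor signalling, had changes of 0.24, 0.29 and 0.33. Isg15 itself, the ubiquitin-like modifier, was low, at 0.969, 1.26 and 1.53 CPM before and 2.21, 2.85 and 3.64 CPM after stimulation. The groups did not overlap (1.21 ± 0.45, adjusted p = 0.141), but in only 3 of the 6 RNA libraries did Isg15 exceed the 95th percentile of the background genes.

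Of the 3 Ifit genes on chromosome 19, whose products bind foreign RNA ends or help antiviral signalling, 1 was called higher and 1 lower. Ifit1, at 34640889 to 34650009, was at 2.88, 3.97 and 2.94 CPM before and 6.26, 7.25 and 10.7 CPM after stimulation, and Ifit2, at 34550550 to 34576534, was at 50.7, 46.8 and 48.5 CPM before and 25.3, 25.1 and 31.1 CPM after. Neither gene's groups overlapped. Ifit1 rose by 1.31 ± 0.30 (adjusted p = 0.0202, edgeR) and Ifit2 fell by 0.84 ± 0.15 (adjusted p = 0.00608) on the log2 scale. The difference between both changes was not tested. With scaling over all RNA libraries, the Ifit1 change was 1.87 between the low-background and 0.76 between the high-background libraries. Ifit1 exceeded the background genes' 95th percentile in all 6 RNA libraries. That percentile was 4.30 CPM by library total in stimulated replicate 1. Ifit3 was at 6.71, 8.06 and 7.88 CPM against 5.82, 5.69 and 8.36 CPM, with overlapping groups (-0.19 ± 0.24, adjusted p = 0.575), and may share reads with its copy Ifit3b.

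The Ifit1 call was lost without stimulated replicate 2 (adjusted p = 0.0967), unstimulated replicate 1 (0.0600) or unstimulated replicate 3 (0.126), and the Ifit2 call without stimulated replicate 2 (0.0707). Ifit1 overlaps Ifit1bl1 in the annotation. Both genes cannot be told apart where reads fall on the shared part, and Ifit1bl1, named here for that overlap, was called lower (log2 -0.57 ± 0.16, adjusted p = 0.0486). Its call was lost without stimulated replicate 1 (0.143), stimulated replicate 2 (0.191), unstimulated replicate 1 (0.248) or unstimulated replicate 3 (0.191).

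No Oas gene passed in the fit described here. These genes encode 2′-5′-oligoadenylate synthetases, which activate RNase L, and related proteins. Oas3 was at 83.8, 74.1 and 84.0 CPM before and 44.1, 47.0 and 70.2 CPM after stimulation. All stimulated libraries lay below the unstimulated ones, replicate 3 least so, and the change of -0.59 ± 0.20 had an adjusted p of 0.105. It was called lower in 10 of 17 alternatives, among them DESeq2 (-0.91, adjusted p = 0.00777) and the replicate block (-0.61, adjusted p = 0.0447). Oasl2 was at 1.54, 4.06 and 1.93 CPM against 5.42, 5.28 and 4.24 CPM (0.99 ± 0.42, adjusted p = 0.201), and was called higher in 3 alternatives. Its highest unstimulated library was a high-background one. Oas1a, Oas2 and Oasl1 did not exceed the background genes' 95th percentile in all 6 libraries, and nor did Isg15, Rsad2 and Ifi44.

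Mx1, which encodes a dynamin-like GTPase that blocks influenza virus, was the only 1 of 9 further effectors called. It was at 17.2, 17.4 and 17.9 CPM before and 9.31, 9.95 and 13.2 CPM after stimulation, without overlap (log2 -0.69 ± 0.15, adjusted p = 0.0175). With scaling over all RNA libraries, the log2 change was -0.41 between the low-background and -0.86 between the high-background libraries. Scaled and fitted on the low-background libraries alone, it was -0.86. The high-background libraries were not scaled alone, so these values cannot tell whether the classes differ. The call was lost without stimulated replicate 1 (adjusted p = 0.0524), stimulated replicate 2 (0.0967), unstimulated replicate 1 (0.0593) or unstimulated replicate 3 (0.108).

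Eif2ak2, encoding the double-stranded-RNA kinase PKR, was at 54.9, 54.6 and 54.3 CPM against 57.2, 63.6 and 84.1 CPM, separated by group but with an adjusted p of 0.309 (0.32 ± 0.18). Xaf1, a pro-apoptotic gene, was at 38.8, 38.1 and 37.9 CPM against 31.5, 37.8 and 50.4 CPM, with groups that overlapped (0.06 ± 0.18, adjusted p = 0.809). The other 6 effectors, Rtp4, Isg20, Ifi44, Zbp1, Bst2 and Rsad2, had log2 changes of -0.53 (Rsad2, viperin) to 1.20 (Ifi44), and the nearest to the threshold was Rtp4 (0.58 ± 0.17, adjusted p = 0.0640), called higher in 9 of 17 alternatives.

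Ifng was the most raised of the interferon pathway genes examined upstream of these targets. Of 20 upstream and transcription factor genes, 5 were called higher and 3 lower, where 3.58% and 4.67% of all genes tested were. These counts were 4 and 1 without stimulated replicate 1, stimulated replicate 2, unstimulated replicate 1 or unstimulated replicate 3. In those fits 1.48 to 2.25% of all genes were higher and 1.57 to 2.45% lower. The counts were 5 and 7 without stimulated replicate 3 (5.05% and 21.9% of all genes). They were 6 and 11 without unstimulated replicate 2 (35.6% and 32.1%). Jak2, a kinase gene among the 5, lost its call in 8 alternatives, and Irf2, among the 3, in 4. Ifng, the gene of interferon gamma, was at 48.6, 40.6 and 42.9 CPM before and 1443, 1627 and 1970 CPM after stimulation. The stimulated libraries exceeded the unstimulated ones throughout, with a log2 change of 5.25 ± 0.24 (adjusted p = 5.38e-07, edgeR).

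The interferon gamma receptor chain gene Ifngr1 fell by 1.34 ± 0.22 on the log2 scale (947 ± 73.4 to 373 ± 90.5 CPM, SD, n = 3 each, adjusted p = 0.00409, edgeR) and the type I receptor chain gene Ifnar1 by 0.84 ± 0.20 (adjusted p = 0.0275). The Ifnar1 call was lost without stimulated replicate 1 (adjusted p = 0.115), stimulated replicate 2 (0.157), unstimulated replicate 1 (0.0760) or unstimulated replicate 3 (0.126). The transcription factor gene Irf8 rose by 3.50, and the genes of the feedback inhibitors Socs1 and Socs3 by 1.95 and 1.26. Irf1 (0.59 ± 0.23, adjusted p = 0.166), Irf7 (0.23 ± 0.20, 0.415) and Irf9 (-0.08 ± 0.20, 0.756) did not pass. Of 59 further interferon-stimulated genes, 3 were called higher and 4 lower, with a median of -0.17. The share over all genes tested was 3.58% higher and 4.67% lower. The higher ones were Gbp11 (1.84 ± 0.17), the chemokine gene Cxcl10 (1.12 ± 0.18) and Ifi47 (0.87 ± 0.22), an IRG gene, and Ifi213 (-0.83 ± 0.16) was the most lowered. The Ifi47 call was lost in 8 alternatives, for example under DESeq2 (0.54, adjusted p = 0.131) and without stimulated replicate 2 (0.74, adjusted p = 0.278). Without stimulated replicate 2, 2 of the 59 were higher and 0 lower by edgeR (1.48% and 1.57% of all genes). Without stimulated replicate 1, unstimulated replicate 1 or unstimulated replicate 3, the counts were 2 and 1, against 1.55 to 2.25% and 1.77 to 2.45% of all genes. Without stimulated replicate 3 they were 5 and 29 (5.05% and 21.9%), and without unstimulated replicate 2 they were 10 and 39 (35.6% and 32.1%).

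Footprints of the members were sparse, 96 in the 3 unstimulated and 153 in the 2 stimulated libraries over all 37 genes. No member had enough for edgeR's filter, so 0 members entered the footprint test (256 genes, 9.38% called) or the efficiency test, which asks whether footprints changed beyond RNA (255 genes, 3.14% called). Without a filter, edgeR called 0.103% of 10647 genes and 0 of the 26 members that had a footprint, 3 of which had an unadjusted p below 0.05. DESeq2 called 0.452% of the genes for which it gave an adjusted p and 0 members, with 1 unadjusted p below 0.05 and 19 members given no adjusted p. The share of all genes with an unadjusted p below 0.05 is not given here, so these counts show nothing particular to the members. The other 11 members had no footprint in any library, among them Tgtp1, Ifit2, Ifit3, Mx1 and Eif2ak2. A count of 0 allows up to 3 counts, or 73.3 CPM over the unstimulated and 67.4 CPM over the stimulated footprint libraries.

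Summed over genes, the GTPases held a larger share of footprints after stimulation. They had 12, 20 and 17 footprints in the unstimulated libraries and 53 and 53 in the stimulated ones. As shares these were 0.119% ± 0.0160 (SD, n = 3) and 0.239% ± 0.0212 (n = 2), with no overlap between groups, beside 0.209% ± 0.0154 and 0.311% ± 0.0322 in RNA (n = 3 each). The 26 other members had 10, 22 and 15 footprints against 20 and 27, or 0.113% ± 0.0331 and 0.105% ± 0.0129, with overlapping groups.

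Within the GTPases, the 5 genes called higher in RNA went from 0.0277% ± 0.00812 to 0.130% ± 0.0338 of footprints, a ratio of 4.68 beside 2.31 in RNA, and the other 6 from 0.0912% ± 0.0190 to 0.110% ± 0.0125. These 5 had been picked by their RNA, and their 3 to 4 footprints per unstimulated library leave the ratio imprecise: for unstimulated replicate 1 the exact 95% interval of the share was 0.00979 to 0.0919%. With 3 libraries against 2, no further test was made on these sums. Whether the footprint ratio exceeds the RNA ratio was not tested, and the RNA ratio is not corrected for the 4 abundant genes. All intervals cover counting error only.

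**Figure D3:**
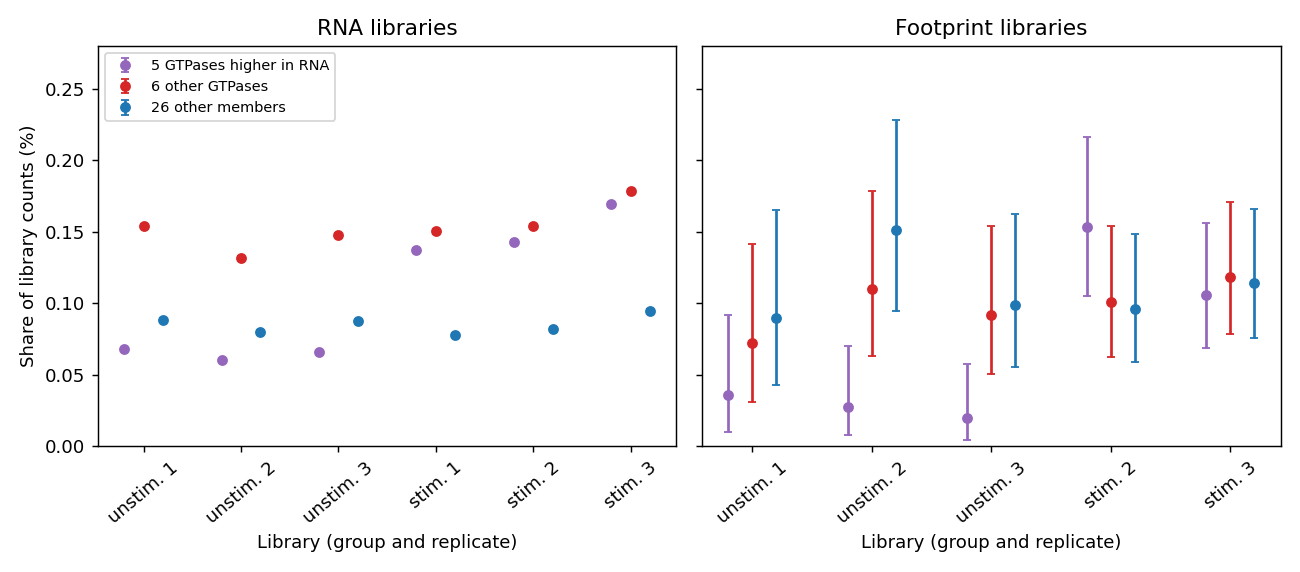
Share of each library's counts (%) on the 5 GTPases called higher in RNA, the 6 other GTPases and the 26 other members, in the 6 RNA (left) and 5 footprint libraries (right); bars are exact 95% binomial intervals, too narrow to see for RNA. The 5 GTPases lie at 0.0197 to 0.0359% of footprints in the unstimulated and at 0.106 and 0.153% in the stimulated libraries. In footprints, the intervals of every set overlap between groups. For the 5 GTPases, the interval of unstimulated replicate 1 reaches 0.0919% and that of stimulated replicate 3 starts at 0.0684%.

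By gene, Igtp had 0, 4 and 3 footprints in the unstimulated and 12 and 15 in the stimulated libraries (3.55-fold in CPM, unadjusted p = 0.0181, edgeR without a filter). Irgm1 had 2, 0 and 0 against 11 and 4 (unadjusted p = 0.0269). Iigp1 had none among 40944 unstimulated footprints against 7 and 3 in the stimulated libraries (10 in all, exact 95% Poisson interval 4.80 to 18.4), at least 3.07-fold higher against the floor of 3 counts over the group (unadjusted p = 0.0122). Scaled to depth, Igtp and Iigp1 were higher in both stimulated libraries than in any unstimulated one, the groups of Irgm1 overlapped, and none of the 3 passed after adjustment. How many of all genes separated in this way in footprints is not given here, so the separation is not read as particular to these genes.

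Gbp2 had 3, 4 and 9 footprints before and 11 and 15 after stimulation. Outside the GTPases, Ifi35 had 2, 3 and 1 against 12 and 6, and Oas3 had 0, 7 and 6 against 1 and 2. Scaled to depth, Ifi35 was higher in both stimulated libraries, again without a share over all genes to set beside it, and the groups of Gbp2 and Oas3 overlapped.

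Gbp4 had few footprints for its RNA. It had 2, 0 and 0 in the unstimulated libraries and 0 and 2 in the stimulated ones. In proportion to its share of RNA, here with the 4 abundant genes left out of all totals, it would have had 24.1 and 30.3. Its ratio of footprints to that number was 0.0830 and 0.0659. Among all genes with at least 10 footprints by that measure, the median ratio was 0.605 unstimulated (894 genes) and 0.688 stimulated (975 genes), and 10.96% and 8.92% of those genes were at or below Gbp4. Gbp2, in contrast, had ratios of 1.15 and 1.20, Igtp 0.607 and 0.953, and Iigp1 0 and 0.460. The exact 95% Poisson interval of 2 counts is 0.242 to 7.22. A gene with near copies can lose short reads that fit several places, which is not described for these counts, and its part in the low ratio was not tested.

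**Figure D4:**
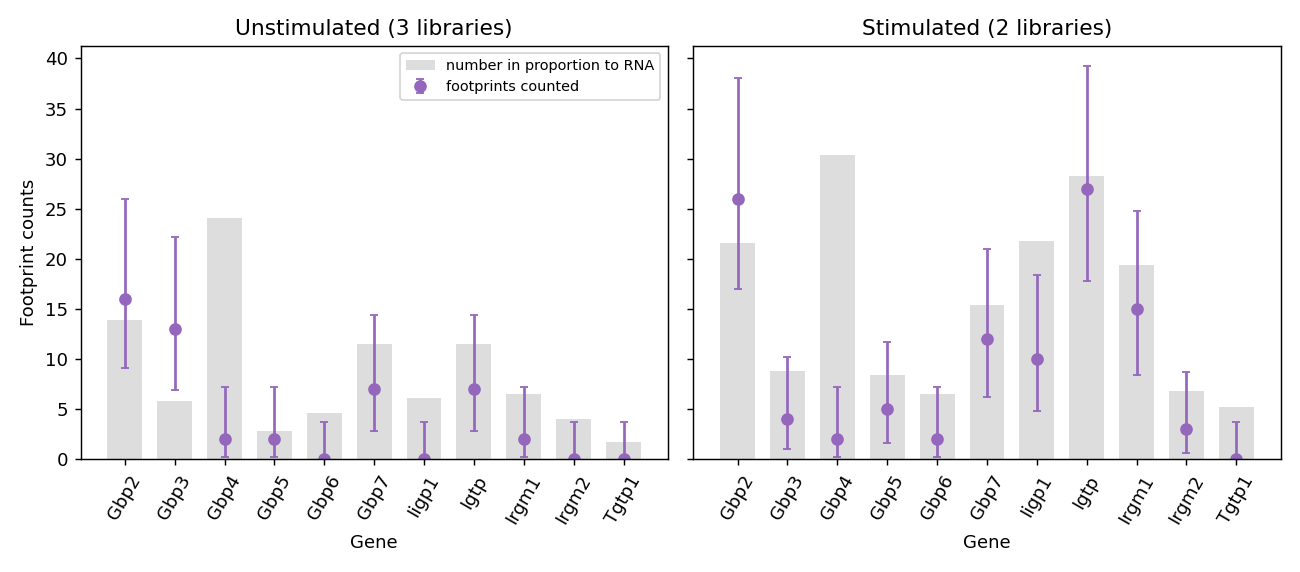
Footprints counted for each GTPase gene (points, exact 95% Poisson intervals) in the unstimulated (left, 3 libraries summed) and stimulated (right, 2 libraries summed) groups, with grey bars for the number in proportion to the gene's share of RNA. The 4 abundant genes were left out of the totals for the bars. Gbp4 has 2 footprints in each group against bars of 24.1 and 30.3, and Igtp rises from 7 to 27.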

How the data were processed

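The deposited tables give, for 21957 genes in 11 libraries, whole-number read counts within coding sequences, not normalized by the authors. STAR 2.5 and mm10 (GRCm38) are named in the submitters' processing notes. The counting tool, annotation, strand handling and read filters are not given in the sources used here, so overlapping genes (Ifit1, Stat2, Rtp4 and Eif2ak2 each overlap a protein-coding neighbour) may share counts. The series-wide table and the single files held the same 241527 values. A gene name table matched 21838 identifiers to symbols.

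Each assay was tested on all genes with edgeR 4.0.16 in R 4.3.3 (quasi-likelihood F test, TMM, filterByExpr with minimum count 10 and minimum total 15, two-sided, Benjamini-Hochberg, threshold 0.05). Efficiency was tested as an assay-by-stimulation interaction over all libraries. Alternatives were DESeq2 1.42.0, limma 3.58.1 with voom, other scalings and filters, a replicate block and each library left out, and, chosen after seeing the data, a term for the background class and a fit without the 3 high-background libraries. The scripts were tested on simulated data. The members and lists were chosen with earlier results of these data known.

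Values are given for each member past the threshold and for the 2 most abundant of each role. Levels per kilobase of coding sequence and protein identities had been planned, but no coding lengths or proteins were used here, so abundance and background were taken in CPM and no levels are compared between genes. Promoter windows are RefSeq's for GRCm38.p6. A gene named by the rule for the upstream list is not reported here.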

Additional observations from a re-analysis of the deposited data

How the results depend on the processing

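Over all genes in RNA, 677 higher and 882 lower calls became 363 and 2466 under DESeq2, 1868 and 1519 with limma voom, 334 and 1364 with RLE scaling, 1007 and 4219 with library totals, 519 and 1147 with scaling without 4 abundant genes, 410 and 1007 without a filter, 2287 and 2645 with a stricter filter, 3207 and 3149 for genes of at least 10 CPM, 3691 and 1967 with the background class as a term, and 1944 and 5399 without the 3 high-background libraries, and ranged from 283 to 6851 and from 301 to 6173 when each library was left out. Higher calls made up 43.4% of calls, and 12.8, 55.2, 19.7, 19.3, 31.2, 28.9, 46.4, 50.5, 65.2 and 26.5% in these settings in the same order. Members higher (7) became 12 with limma voom, 19 with a stricter filter, 20 for genes of at least 10 CPM and with the background class as a term, 13 without the high-background libraries, and 4 to 12 with a library left out. Members lower (2) became 4 with DESeq2 and for genes of at least 10 CPM, 6 with library totals, 7 without the high-background libraries, and 0 to 9 with a library left out. GTPases higher (5) became 10 with a stricter filter, 11 for genes of at least 10 CPM, 9 with the background class as a term and 8 without the high-background libraries.

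Deviations of same-numbered RNA libraries correlated at -0.82, 0.66 and 0.84 for numbers 1, 2 and 3. The correlations followed the background class: unstimulated replicate 1 with stimulated replicate 3 gave 0.85, and unstimulated replicate 2 with stimulated replicate 1 gave 0.87. They therefore cannot show whether the replicate numbers mark pairs. With the replicate block, 1232 genes were higher and 1163 lower (51.4% of calls higher), among them 8 members higher and 3 lower. For the footprints the block gave 16 higher and 10 lower, and for efficiency 4 and 6.

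Several members with small changes turned sign, and the cause was not tested. Under DESeq2, Dhx58 was at -0.27, Stat2 at -0.07, Trim25 at -0.03, Ifi35 at -0.07, Oas1a at -0.00, Xaf1 at -0.25, Gbp4 at -0.13, Gbp7 at -0.05 and Irf7 at -0.09. Dhx58 and Xaf1 were at -0.18 and -0.16 with RLE scaling, -0.14 and -0.12 with library totals, -0.07 and -0.06 with scaling without 4 abundant genes, -0.10 and -0.09 without a filter, and -0.14 and -0.05 without the high-background libraries. Gbp4 was at -0.04 with RLE scaling, Oas1a at -0.05 without the high-background libraries, and Irf9 at 0.01 for genes of at least 10 CPM. With a library left out, Dhx58 ranged from -0.25 to 0.04, Xaf1 from -0.21 to 0.04, Stat2 from -0.00 to 0.19, Ifi35 from -0.09 to 0.24, Oas1a from -0.06 to 0.36, Gbp4 from -0.13 to 0.19, Gbp7 from -0.05 to 0.27 and Irf7 from -0.10 to 0.21.

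For footprints over all genes, 14 higher and 10 lower calls became 8 and 0 with DESeq2, 10 and 1 without a filter, and 8 and 9 with a filter at a mean of 5 footprints, and were 4 to 21 and 7 to 16 with a library left out. That filter belongs to the setting called stricter for RNA, but for footprints it was looser. It kept 1131 genes against 256, among them 6 members, and 0 members were called. For efficiency, 4 and 4 became 36 and 3 with DESeq2, 0 and 0 with limma voom, without a filter and in that same setting (1129 genes against 255), 1 and 2 for genes of at least 10 CPM, and 4 and 1 with library totals, and were 0 to 5 and 0 to 5 with a library left out. The summed RNA level in unstimulated cells was 2093 CPM for the GTPases and 853 CPM for the other members with library totals. Footprint depth, 11136 to 23641 counts, limits every statement on single members.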
